A study of Mus musculus with 25 samples.

Results

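Dpep1 encodes dipeptidase 1, and its level was followed across all 25 arrays of a mouse mammary tumor study as 1 of 19937 genes with a measured value. The gene was chosen by its log2 levels on these same arrays, which differ widely, so those levels and their differences are given as a description with no test. It is read by 1 probe set, so no choice among probe sets was needed. The genes whose levels follow it, its enzyme family, its pathways and its chromosomal neighbours were then described beside it.

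Dipeptidase 1 is a zinc metalloenzyme held on the outer face of the cell membrane by a glycosylphosphatidylinositol (GPI) anchor, and it is best known from the brush border of the kidney. It cleaves cysteinylglycine, the dipeptide left when gamma-glutamyltransferases take apart extracellular glutathione, and it converts leukotriene D4 into leukotriene E4 by the same reaction. In mouse lung and liver the protein is also known as an adhesion receptor on endothelium to which neutrophils bind.

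The study measured total RNA of mammary tumors and of reference mammary glands on Affymetrix whole-transcript arrays, 1 array a sample. There were 10 tumors of K8-creERT2/PIK3CA H1047R mice on the mixed background FVB/CD1, 2 glands of K8-creERT2 ctrl mice on that background, 10 tumors of Lgr5-creERT2/PIK3CA H1047R mice on the mixed background FVB/C57/BL6, and 3 glands of Lgr5-creERT2 ctrl mice on this second mix. PIK3CA H1047R is an activating mutant of the PI3-kinase catalytic subunit, switched on where a tamoxifen-activated Cre recombinase is made, in K8-positive (keratin 8) or in Lgr5-positive mammary cells. Tamoxifen was given at 7 to 8 weeks of age, a treatment that the labels state for every sample. The driver and the strain mix change together between the lines and cannot be told apart, and since the labels leave unsaid which animal each tumor came from, spreads and p-values cover only the spread between these samples. In whole tissue, fewer cells of a type and less RNA per cell cannot be told apart.

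The labels were set against tissue markers. Across the 25 arrays the array medians were 6.34 to 6.43 and the highest correlation between arrays was 0.995. Lgr5 tumors 2, 6, 7, 8 and 9 had mean log2 levels of 14 adipocyte genes of 12.57 to 12.76, against 7.90 to 11.39 in the other 13 arrays labelled tumor with ordinary squamous levels and 7.69 to 9.84 in the 5 labelled gland. The same 5 Lgr5 tumors had the lowest means of 9 epithelial genes (9.39 to 10.08, against 11.23 to 11.71 in glands) and of 11 cell cycle genes (6.77 to 7.82, against 9.29 to 9.84 in glands). K8 tumor 9 and Lgr5 tumor 10 had means of 11 squamous genes of 9.43 and 9.72, in the range of the arrays labelled gland (8.58 to 10.23) and above the 5.75 to 7.71 of the 18 other arrays labelled tumor. These markers set 7 arrays apart from the others of their label. The 5 glands in turn carried squamous genes, and their cell cycle means of 9.29 to 9.84 compare with 8.12 to 9.33 in the other 13 arrays labelled tumor. Whether any label is wrong was not tested, so tumor and gland below mean what the labels say. Values are also given without the 7 arrays, while every tumor-gland difference still rests on arrays labelled gland.

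The promoter is shown because Dpep1 is low or high on whole groups of arrays, and its letters let a reader look for the elements named here. In RefSeq on GRCm38.p6 the gene start lies on the plus strand, and the window of 250 bases before it and 50 after it is chr8:123185985-123186284. It reads 5′ to 3′ as follows, with the E-box letters CANNTG in capitals.
Dpep1 promoter: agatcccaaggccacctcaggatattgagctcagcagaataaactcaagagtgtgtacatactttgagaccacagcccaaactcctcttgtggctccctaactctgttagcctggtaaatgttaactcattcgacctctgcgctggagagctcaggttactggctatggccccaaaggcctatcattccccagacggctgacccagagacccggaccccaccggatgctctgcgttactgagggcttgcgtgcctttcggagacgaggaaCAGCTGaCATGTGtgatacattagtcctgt

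Searched on both strands, the window held 2 E-boxes, at bases 271 and 278 of the window, which do not overlap each other. E-boxes were present in 72.3% of 32851 mouse promoters of the same length, so their presence is common. The window held 0 matches to the TATA box TATAAA (present in 13.6% of promoters), the CCAAT box CCAAT (37.4%), the GC box GGGCGG (35.7%), the AP-1 letters TGACTCA (5.2%) and the ETS letters CCGGAAG (8.9%). Its GC content was 52.7%, against a median of 52.7% over all promoters, and it held 9 CpG pairs, against a median of 7. The motif matches describe these letters only.

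Dpep1 stood high on most arrays labelled tumor and low on every array labelled gland. The 10 K8 tumors had log2 levels of 7.09 at the lowest, 10.57 at the median and 11.42 at the highest, against 6.25 and 6.58 in the 2 K8 glands. The 10 Lgr5 tumors ran from 8.39 over a median of 11.28 to 11.85, against 7.27, 6.83 and 7.61 in Lgr5 glands 1, 2 and 3. In the Lgr5 line no tumor overlapped a gland, and in the K8 line the lowest tumor lay above both glands by less than the distance to the next tumor.

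The lowest value of each tumor group was that of an array whose squamous markers set it apart from the other tumors. K8 tumor 9 had 7.09, while the other 9 K8 tumors had 11.18, 10.75, 10.69, 9.63, 11.07, 11.42, 10.45, 10.43 and 9.92 in the order of their numbers. Lgr5 tumor 10 had 8.39, while Lgr5 tumors 1 to 9 had 10.23, 11.85, 10.65, 10.35, 11.15, 11.76, 11.40, 11.48 and 11.41. The 25 arrays therefore fell into a high set of 18 arrays labelled tumor, at 9.63 and above, and a low set of 7 arrays, at 8.39 and below, which holds the 5 glands and these 2 tumors.

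**Figure D1:**
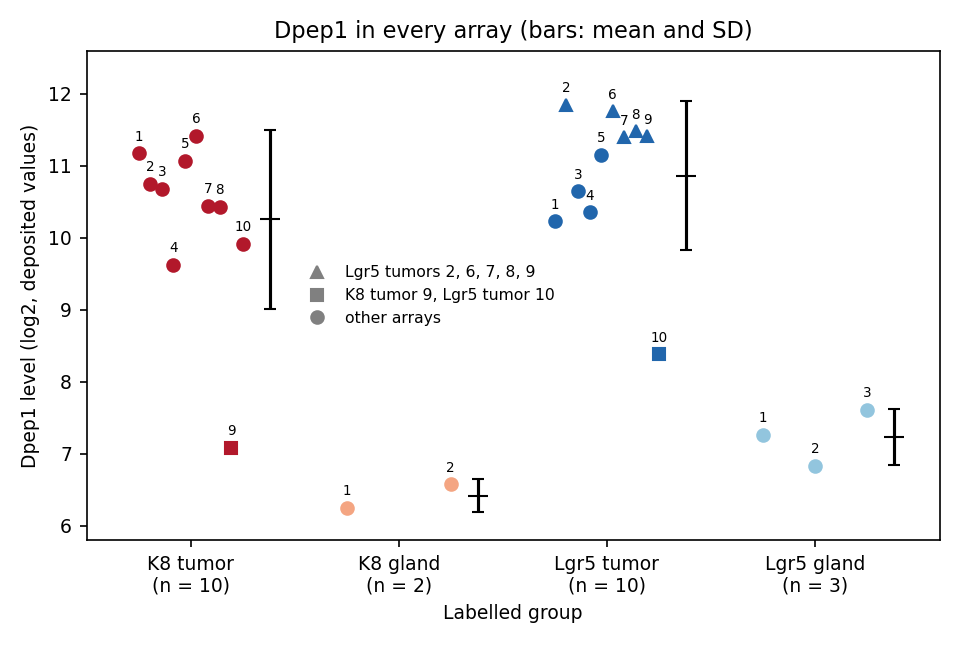
Log2 level of Dpep1 (vertical axis) on each of the 25 arrays by labelled group (horizontal axis), numbered by replicate, with the group mean and SD beside the points. Triangles mark the 5 Lgr5 tumors with high adipocyte markers, which hold the 5 highest Lgr5 values, and squares mark K8 tumor 9 (7.09) and Lgr5 tumor 10 (8.39), which lie nearer to the glands than to the other tumors.

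In order of their means the groups were Lgr5 tumors at 10.87 ± 1.04 (SD, n = 10), K8 tumors at 10.26 ± 1.24 (SD, n = 10), Lgr5 glands at 7.24 ± 0.39 (SD, n = 3) and K8 glands at 6.42 ± 0.23 (SD, n = 2). Lgr5 tumors exceeded Lgr5 glands by a log2 difference of 3.63 ± 0.68 (SE), which is 12.4-fold. K8 tumors exceeded K8 glands by 3.85 ± 0.80 (SE), which is 14.4-fold. Both K8 glands (6.25 and 6.58) lay near the array medians of 6.34 to 6.43, and whether their levels exceed background was not tested. Both differences were more than 3 times the spread of 1.07 (SD) within groups.

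Neighbours in that order were much closer. K8 minus Lgr5 tumors gave a log2 difference of -0.60 ± 0.46 (SE), which is within the SD of either tumor group. K8 minus Lgr5 glands gave -0.82 ± 0.94 (SE), larger than either gland SD but within the spread shared by all groups. The tumor-gland difference of the Lgr5 line minus that of the K8 line was -0.22 ± 1.05 (SE).

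Without K8 tumor 9 and Lgr5 tumor 10 the spreads shrank, to 10.62 ± 0.58 (SD, n = 9) in K8 tumors and 11.14 ± 0.59 (SD, n = 9) in Lgr5 tumors, and the tumor-gland log2 differences were 4.20 ± 0.42 (SE) in the K8 line and 3.90 ± 0.36 (SE) in the Lgr5 line. Lgr5 tumors 2, 6, 7, 8 and 9 averaged 11.58 ± 0.21 (SD, n = 5) and lay between 11.40 and 11.85, a range that in the K8 line K8 tumor 6 alone reached. Without these 5 arrays the Lgr5 tumor-gland difference was 2.91 ± 0.75 (SE), and K8 minus Lgr5 tumors turned to 0.11 ± 0.57 (SE). Without all 7 arrays the tumor-gland differences were 4.20 ± 0.37 (SE) in the K8 line and 3.36 ± 0.37 (SE) in the Lgr5 line, and K8 minus Lgr5 tumors was 0.02 ± 0.29 (SE). The order of the tumor groups thus rests on the 5 arrays with high adipocyte genes.

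The genes most like Dpep1 were ranked by Pearson's r over the 25 arrays, which share group labels and, by the split above, a high and a low set. Of 18066 protein-coding genes ranked, 128 had an r above 0.9 and 174 an r below -0.9. The 15 highest were Scn7a, Tshz2, Cyria, Arhgap24, Plcb1, Nid1, Zfp275, Cyyr1, Fmo1, Ttc28, Dmpk, Ehd2, Rtl8c, Eng and Cav1, with r from 0.95 to 0.98. Several have known roles: Scn7a encodes a sodium-sensing channel, Tshz2 a zinc-finger transcription factor, Nid1 a basement membrane protein, Eng (endoglin) a TGF-beta co-receptor of endothelium, and Cav1 and Ehd2 proteins of caveolae.

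Tshz2 had the highest r once group means were subtracted. Its log2 level was 7.72 to 9.11 on the 18 arrays of the high set and 6.56 to 7.14 on the other 7, so these sets did not overlap. Its r with Dpep1 was 0.98 over 25 arrays (Spearman 0.97), 0.96 after group means were subtracted, 0.98 over the 10 K8 tumors, 0.99 over the 10 Lgr5 tumors and 0.98 over the 18 arrays labelled tumor without K8 tumor 9 and Lgr5 tumor 10 (Spearman 0.96). This last set of arrays was added after the Dpep1 levels were seen. Over the 18 arrays it again stood first, while over the 10 K8 tumors alone Cyyr1 had a higher r of 0.99.

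Scn7a, first over 25 arrays with r = 0.98, ran from 10.32 to 11.88 on the 18 arrays and from 7.62 to 9.89 on the other 7. Its r was 0.94 after group means were subtracted and 0.85 over the 18 arrays. Lgr5 tumors exceeded Lgr5 glands in Scn7a by a log2 difference of 2.50 ± 0.49 (SE), next to 1.51 ± 0.34 (SE) for Tshz2. In the K8 line Scn7a differed by 2.81 ± 0.58 (SE), and Tshz2 by 1.29 ± 0.40 (SE). Dpep1 had the larger difference in each line.

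After group means were subtracted, the 10 most similar genes were Tshz2, Scn7a, Cyyr1, Esam, Epas1, Arhgap24, Rtl8c, Adgrl4, Cyria and Rapgef2, with r of 0.92 to 0.96. Esam encodes an adhesion molecule of endothelial junctions, Epas1 a hypoxia-inducible transcription factor abundant in endothelium, and Adgrl4 an adhesion receptor of endothelium. Of the first 15 genes, 8 were again among the first 15 after this subtraction, 7 without the 7 arrays, 7 over K8 tumors alone, 2 over Lgr5 tumors alone, and 2 over the 18 arrays. Over the 18 arrays r of the 15 genes ran from 0.61 for Zfp275 to 0.98 for Tshz2, and Cyyr1 (0.92), which encodes a small membrane protein, came next.

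At the other end stood Nolc1, a nucleolar phosphoprotein gene, with r = -0.97. Its log2 level was 8.50 to 9.29 in K8 tumors, with its highest value in K8 tumor 9, against 9.61 and 9.38 in K8 glands. In Lgr5 tumors it was 8.43 to 9.22, with its highest value in Lgr5 tumor 10, against 9.36, 9.19 and 9.23 in Lgr5 glands. Homer1 (a scaffold gene), Llgl2 (a polarity gene of epithelium), Nars (asparaginyl-tRNA synthetase) and Prdm4 (a zinc-finger gene) followed with r of -0.96 to -0.95.

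**Figure D2:**
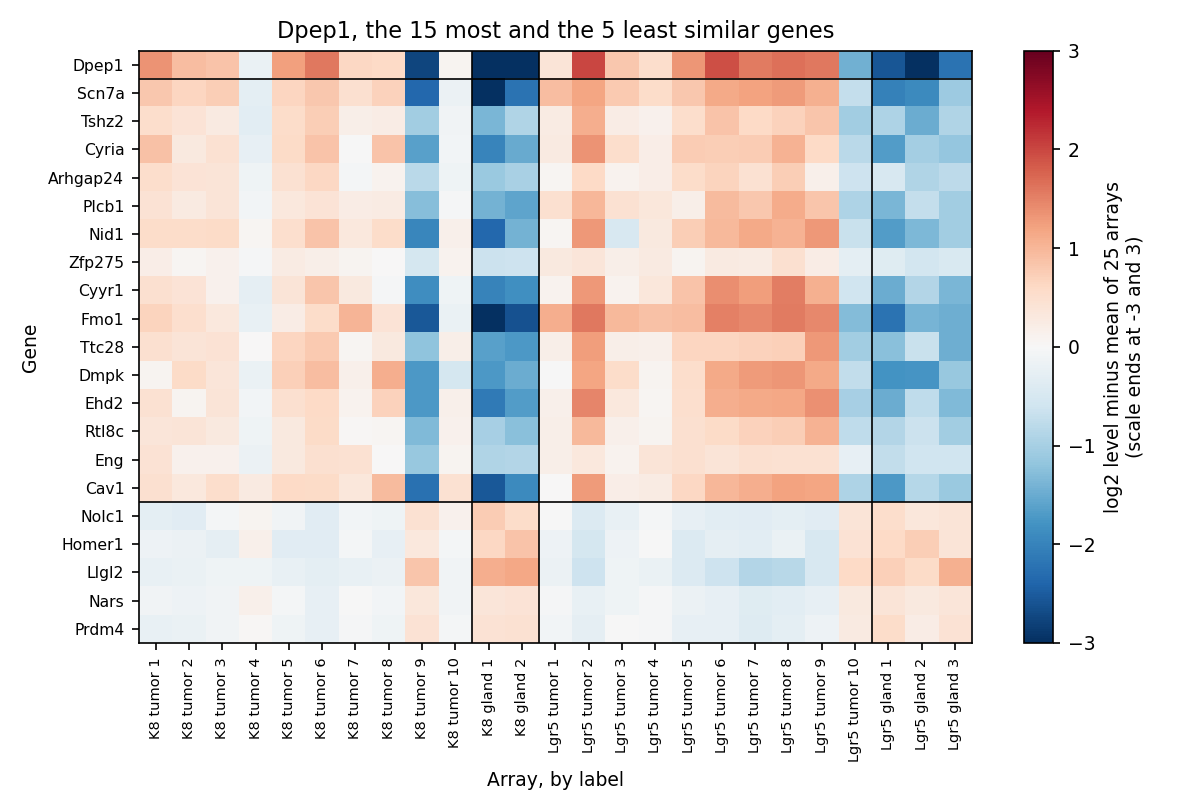
Log2 level minus the mean of the 25 arrays (colour, ending at -3 and 3) for Dpep1, the 15 genes with the highest r and the 5 with the lowest (rows), on each array by label (columns, groups parted by lines). K8 tumor 9 is close to the gland columns, while Lgr5 tumor 10 lies between the glands and the other tumors for several genes, among them Scn7a, Nid1 and Eng. The 5 lowest genes run opposite to Dpep1.

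Among the marker lists of cell types that a mammary sample can hold, the mean of 10 endothelial genes had the highest r with Dpep1 over 25 arrays. That mean was 8.88 to 9.85 on the 18 arrays labelled tumor, 7.89 and 8.71 on K8 tumor 9 and Lgr5 tumor 10, and 7.79 to 8.49 on the 5 glands. Its r with Dpep1 was 0.95 over 25 arrays (Spearman 0.96), and 0.94 without the 2 arrays farthest from the median Dpep1 level. It was 0.92 after group means were subtracted, 0.88 over the 18 arrays, 0.80 over their 9 K8 tumors and 0.89 over their 9 Lgr5 tumors.

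Over 25 arrays the single endothelial genes closest to Dpep1 were Tie1 (r = 0.94), Kdr (0.94), Esam (0.93) and Cdh5 (0.91), which encode receptors and junction proteins of vessels, and Pecam1 had 0.91. Over the 18 arrays the order was another, with Esam at 0.94, Pecam1 and Cdh5 at 0.84, Kdr at 0.82 and Tie1 at 0.59. The rest of the list followed Dpep1 less closely there than Kdr did, with Egfl7 at 0.74, Tek at 0.66, Plvap at 0.58, Emcn at 0.53 and Vwf at 0.46. Tie1 had log2 levels of 7.07, 8.23 and 8.82 at the lowest, median and highest of the K8 tumors, against 6.98 and 7.23 in K8 glands. In Lgr5 tumors Tie1 had 7.72, 8.33 and 8.64 at the same points, against 7.52, 7.47 and 7.51 in Lgr5 glands. As with Dpep1, K8 tumor 9 and Lgr5 tumor 10 were the lowest tumors.

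The endothelial list is described here because it followed Dpep1, which parts tumors from glands, so higher levels in tumors were largely built into that choice and its counts support nothing further. A gene is counted as risen or fallen where limma across all genes gave a Benjamini-Hochberg adjusted p under 0.05. In Lgr5 tumors against Lgr5 glands 8 of 10 rose and 0 fell (5.28% of all genes tested rose in that comparison), with Vwf at a log2 difference of 1.06 ± 0.22 (SE) and Esam at 1.13 ± 0.33 (SE). The median of the 10 was 0.97, against -0.01 for all genes. In K8 tumors against K8 glands 4 of 10 rose and 0 fell (3.42% of all genes rose), with Tie1 at 1.13 ± 0.27 (SE), and the median was 1.05, against -0.01 for all genes. K8 and Lgr5 tumors differed in 0 of the 10 (21.3% of all genes passed in that comparison), and the median difference was -0.34. Of 12 fibroblast genes 8 rose in the Lgr5 line and 4 in the K8 line, of 6 pericyte genes 2 and 0, and none of either list fell.

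The endothelial counts moved with the arrays whose markers set them apart from others of their label. Without K8 tumor 9 and Lgr5 tumor 10 all 10 rose in each line, where 27.0% of all genes passed in the Lgr5 line and 19.9% in the K8 line. Without the 5 Lgr5 tumors high in adipocyte genes 6 rose in the K8 line (12.8% of all genes passed) and 0 of 10 in the Lgr5 line, where 1 of all 19937 genes passed with 5 tumors against 3 glands. The log2 differences in that setting were 1.01 for Vwf, 0.74 for Esam and 0.62 for Tie1, with a median of 0.62 over the 10. Without all 7 arrays 9 rose in the Lgr5 line (3582 of all 19937 genes passed) and 10 in the K8 line (26.8% of all genes passed). Whether endothelial content contributes to the Dpep1 level was not tested.

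**Figure D3:**
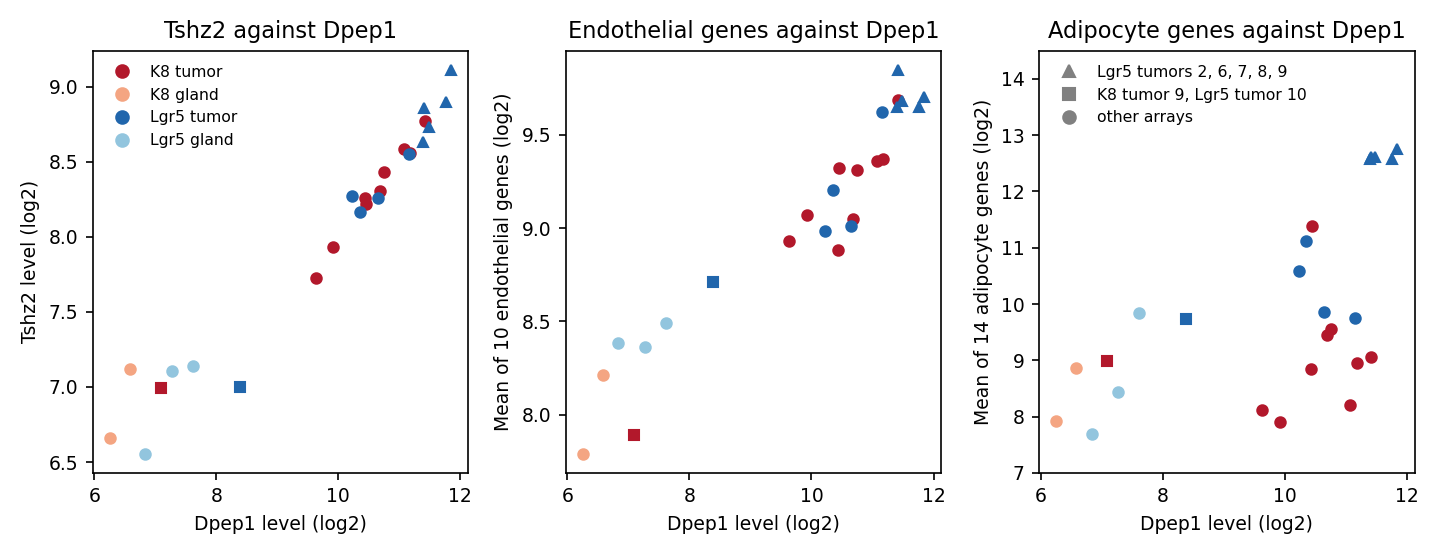
Log2 level of Tshz2, mean log2 level of 10 endothelial genes and mean log2 level of 14 adipocyte genes (vertical axes) against the log2 level of Dpep1 (horizontal axes), 1 point an array, coloured by labelled group. Tshz2 (r = 0.98) and the endothelial mean (0.95) lie along a line through both sets of arrays, while the adipocyte mean (0.59) parts the 5 Lgr5 tumors marked by triangles from the rest.

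The other cell type lists had lower r over 25 arrays. The mean of 6 pericyte genes had r = 0.81 over 25 arrays, 0.77 over the 18 and 0.58 over their 9 Lgr5 tumors. Over their 9 K8 tumors it had 0.83, above the endothelial mean, and 0.32 without the 2 of these farthest from their median Dpep1 level. The mean of 12 fibroblast genes had 0.82 over 25 but 0.36 over the 18, although Dcn, a matrix proteoglycan gene, reached 0.95 and Pdgfra 0.81 over 25. The adipocyte mean had 0.59 over 25 and 0.62 over the 18, with 0.21 over their 9 K8 tumors and 0.73 over their 9 Lgr5 tumors. Of its genes, Pparg had 0.78 and Adipoq 0.48 over 25. The mean of 8 adventitial fibroblast genes had 0.45 over 25 and 0.65 over the 18, with 0.19 over their 9 K8 tumors and 0.74 over their 9 Lgr5 tumors.

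Squamous and neutrophil genes ran opposite to Dpep1, with r of -0.91 and -0.83 for their means over 25 arrays and -0.19 and -0.21 over the 18. Sprr1b (-0.93), a cornified envelope gene, and S100a8 (-0.90), a calprotectin subunit abundant in neutrophils, were the closest in each list. In the neutrophil list Ly6g (-0.38), Ngp (-0.42) and Retnlg (-0.34) had much weaker r than the other members, which had -0.90 to -0.76. The neutrophil mean was 5.41 to 5.78 on the 18 arrays labelled tumor, 6.86 and 7.78 on K8 tumor 9 and Lgr5 tumor 10, and 6.24 to 8.37 on the glands. The level of Dpep1 and the neutrophil mean thus lay apart, with the low set of 7 arrays high in that mean. The same 7 arrays were those high in squamous genes, so the squamous and neutrophil patterns cannot be told apart here. Over 25 arrays macrophage markers had r = 0.13 (mean of 9 genes), T cell markers 0.46 (mean of 6 genes) and the pan-leukocyte gene Ptprc -0.05. The single macrophage genes ran in both directions, from -0.62 for Cd14 to 0.69 for Mrc1.

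The epithelial mean kept its sign between sets of arrays, while the hormone-sensing luminal mean and the basal and myoepithelial mean changed theirs. The mean of 9 epithelial genes had r = -0.66 over 25 arrays and -0.76 over the 18, with Cldn4 at -0.82 and Epcam at -0.58 over 25. The mean of 5 hormone-sensing luminal genes had 0.74 over 25, with Esr1 (estrogen receptor) at 0.91, but -0.77 over the 18. Over the 18 Esr1 itself had 0.25, while the other members of its list had -0.85 (Pgr) to -0.24. The mean of 11 basal and myoepithelial genes had 0.42 over 25 and -0.50 over the 18, with 0.56 over their 9 K8 tumors and -0.73 over their 9 Lgr5 tumors. The cell cycle mean had -0.70 over 25 and -0.64 over the 18.

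Of the 3 dipeptidase genes, Dpep1 alone separated the arrays in this way. Dpep2, whose product also cleaves leukotriene D4 and which is read by 2 probe sets with the brighter one used, had 6.25, 6.57 and 8.49 at the lowest, median and highest of the K8 tumors, against 7.43 and 7.44 in K8 glands. In Lgr5 tumors Dpep2 had 6.51, 6.86 and 8.36, against 7.45, 6.24 and 7.77 in Lgr5 glands 1, 2 and 3, so tumors and glands overlapped. Dpep3, a dipeptidase of testis, stayed between 5.62 and 5.96 on all arrays. In limma Dpep2 and Dpep3 passed in 0 of the comparisons between groups, with r to Dpep1 of -0.37 and -0.06.

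The enzymes that feed Dpep1 with its substrate are the gamma-glutamyltransferases, of which Ggt1 had no value here. Ggt5, which acts on glutathione and leukotriene C4, had log2 levels of 6.63, 7.62 and 8.80 at the lowest, median and highest of the K8 tumors, against 6.31 and 6.70 in K8 glands. In Lgr5 tumors it had 7.18, 8.66 and 9.14, against 6.85, 7.71 and 7.00 in Lgr5 glands. Ggt5 rose in Lgr5 tumors (log2 difference 1.22 ± 0.39 SE, limma adjusted p = 0.0383), and in K8 tumors it differed by 1.07 ± 0.46 (SE, limma adjusted p = 0.147). Its 5 highest Lgr5 values were those of the 5 arrays with high adipocyte genes (8.73 to 9.14). Without them the difference in the Lgr5 line was 0.69, which did not pass, but only 1 of all 19937 genes passed there.

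Ggt6, another family member, had 6.03, 6.18 and 6.56 at the lowest, median and highest of the K8 tumors, against 6.37 and 6.81 in K8 glands, and 5.96, 6.03 and 6.44 in Lgr5 tumors, against 6.59, 6.54 and 6.46 in Lgr5 glands. It fell by 0.39 on the log2 scale in K8 tumors (± 0.12 SE, limma adjusted p = 0.0497) and by 0.42 in Lgr5 tumors (± 0.10 SE, limma adjusted p = 0.0148). Its levels lay near the array medians of 6.34 to 6.43. Lap3, a cytosolic leucine aminopeptidase that can also cleave cysteinylglycine, fell by 0.26 in K8 tumors (± 0.08 SE, limma adjusted p = 0.0446) and by 0.32 in Lgr5 tumors (± 0.07 SE, limma adjusted p = 0.00962). Cndp2, the cytosolic dipeptidase, had differences of -0.27 ± 0.16 (SE) in K8 tumors and -0.05 ± 0.14 (SE) in Lgr5 tumors and passed in neither.

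Transporter and synthesis genes of the glutathione list differed from glands in both directions. Slc7a11, the cystine importer that supplies glutathione synthesis, had 5.60, 5.87 and 8.04 at the lowest, median and highest of the K8 tumors, against 7.97 and 8.31 in K8 glands. In Lgr5 tumors it had 5.56, 5.73 and 8.60, against 8.59, 6.26 and 8.13 in Lgr5 glands. K8 tumor 9 (8.04) and Lgr5 tumor 10 (8.60) stood with the glands, and Lgr5 gland 2 (6.26) stood with the tumors. Slc7a11 fell by 2.12 in K8 tumors (± 0.65 SE, limma adjusted p = 0.0422), and in Lgr5 tumors the difference was -1.57 ± 0.55 (SE, limma adjusted p = 0.0538). Without K8 tumor 9 and Lgr5 tumor 10 the differences were -2.35 and -1.85, and both passed.

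The dipeptide importers Slc15a1 and Slc15a2 ran opposite to Dpep1, with r of -0.84 and -0.81 over 25 arrays and -0.35 and -0.44 over the 18. Slc15a1 differed by -1.71 ± 0.58 (SE, limma adjusted p = 0.0649) in K8 tumors and -1.32 ± 0.49 (SE, limma adjusted p = 0.0683) in Lgr5 tumors, and neither passed. Without K8 tumor 9 and Lgr5 tumor 10 these differences were -1.99 and -1.45, and both passed. Gclc, the catalytic subunit of the rate-limiting synthesis step, rose by 0.98 ± 0.27 (SE, limma adjusted p = 0.0283) in K8 tumors. Gpx8, a peroxidase of the endoplasmic reticulum, rose by 1.11 ± 0.31 in K8 tumors (SE, limma adjusted p = 0.0293) and by 0.77 ± 0.26 in Lgr5 tumors (SE, limma adjusted p = 0.0473). Gstm1, a glutathione transferase, rose by 1.55 ± 0.42 (SE, limma adjusted p = 0.0192) in Lgr5 tumors, where the 5 arrays with high adipocyte genes had 11.38 to 11.66.

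Counted over the list, 27 glutathione turnover genes other than Dpep1 were measured. In Lgr5 tumors against Lgr5 glands 3 rose and 4 fell (15.9% of all genes tested passed in either direction, and 10.6% fell), with a median log2 difference of 0.01, against -0.01 for all genes. In K8 tumors against K8 glands 2 rose and 3 fell (9.10% of all genes passed, and 5.69% fell), with a median of -0.12, against -0.01. Without K8 tumor 9 and Lgr5 tumor 10 the Lgr5 line had 7 that rose and 9 that fell (27.0% of all genes passed), and the K8 line 2 and 9 (19.9%). Without the 5 Lgr5 tumors high in adipocyte genes 0 of 27 passed in the Lgr5 line, where 1 of all genes did. Dpep1 was thus high where its list as a whole had no common direction.

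In the leukotriene pathway, 13 genes other than Dpep1 were measured. In Lgr5 tumors Ggt5 rose and Ltb4r1, a leukotriene B4 receptor, fell by 0.21 on the log2 scale (limma adjusted p = 0.0154), and the other 11 did not pass (15.9% of all genes passed, a like share). In K8 tumors 0 of 13 passed (9.10% of all genes did). The receptors of cysteinyl leukotrienes, Cysltr1 and Cysltr2, passed in neither line. Ltc4s, the synthase of leukotriene C4, was 8.96 to 9.63 on the 5 Lgr5 tumors with high adipocyte genes and 6.09 to 7.45 on the other 13 arrays of the high set.

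Between the tumor groups, 4 of the 13 leukotriene genes were lower in K8 tumors and 1 higher (21.3% of all genes passed in either direction, 12.3% higher and 9.00% lower). Ltc4s fell by 1.61 in K8 against Lgr5 tumors (± 0.42 SE, limma adjusted p = 0.0157) and Alox5, the lipoxygenase that starts the pathway, by 0.69 (± 0.18 SE, limma adjusted p = 0.0172). Abcc1, an exporter of leukotriene C4, fell by 0.42 (± 0.09 SE, limma adjusted p = 0.0118), Ggt5 by 0.83 (± 0.27 SE, limma adjusted p = 0.032), and Lta4h rose by 0.15 (± 0.05 SE, limma adjusted p = 0.0288). Of the glutathione genes 1 rose and 7 fell in the same comparison. Without the 5 Lgr5 tumors high in adipocyte genes 0 genes of either list passed, where 0 of all 19937 genes did. With the adipocyte mean as a covariate the differences of Ltc4s and Ggt5 turned to 0.08 and 0.11, and again 0 of all genes passed.

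Among 12 other peptidases of the cell surface, 2 rose in the K8 line (Mme and Ace) and 2 in the Lgr5 line (Enpep and Fap), and 0 fell. Of all genes 3.42% rose in the K8 line and 5.28% in the Lgr5 line. Mme (neprilysin) had 9.86, 10.95 and 11.48 at the lowest, median and highest of the K8 tumors, against 9.07 and 9.34 in K8 glands. It rose there by 1.64 ± 0.38 (SE, limma adjusted p = 0.0165), and Ace, the angiotensin-converting enzyme, by 1.45 ± 0.37 (SE, limma adjusted p = 0.0211). In Lgr5 tumors Mme had 9.45, 11.07 and 11.35, against 9.99, 10.89 and 9.82 in Lgr5 glands, with a difference of 0.72 ± 0.32 (SE, limma adjusted p = 0.124), and of 0.89, which passed, without K8 tumor 9 and Lgr5 tumor 10. Enpep, the aminopeptidase that cleaves angiotensin II, rose by 2.15 ± 0.64 (SE, limma adjusted p = 0.0287) and Fap, a peptidase of activated fibroblasts, by 1.64 ± 0.51 (SE, limma adjusted p = 0.0338) in Lgr5 tumors.

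Enpep was 10.31 to 10.76 on the 5 Lgr5 tumors with high adipocyte genes. It was 7.38 to 8.97 on the other 13 arrays of the high set. Without those 5 Lgr5 tumors 0 of the 12 peptidases passed in the Lgr5 line, where 1 of all 19937 genes did. In K8 against Lgr5 tumors 6 of the 12 fell and 0 rose, among them Dpp4 with a log2 difference of -1.71 ± 0.49 (SE, adjusted p = 0.0209 in limma) and Enpep with -1.58 ± 0.44 (SE, adjusted p = 0.0186 in limma). Of all genes 9.00% fell and 12.3% rose in that comparison. Without the 5 arrays 0 of the 12, and 0 of all genes, passed in it. The difference between the lines in tumor against gland was called for 0 of 19937 genes in limma (883 had an unadjusted p under 0.05), so no listed gene was shown to differ between the lines in this respect.

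**Figure D4:**
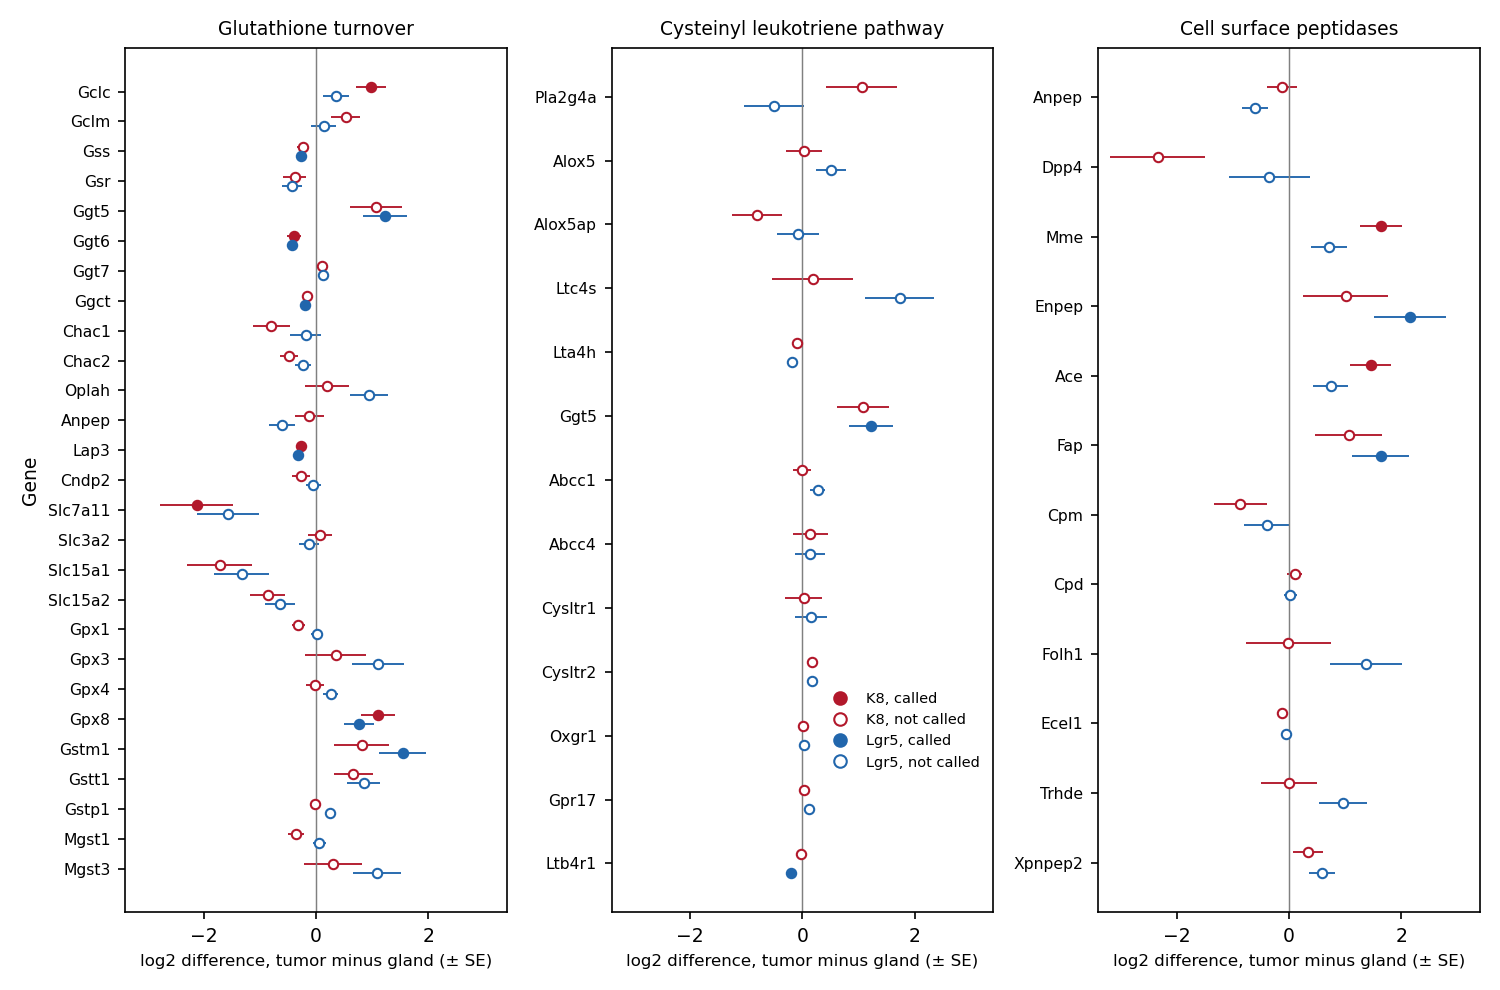
Log2 difference of tumor minus gland with its SE (horizontal axes) for each measured gene (rows) of the glutathione turnover, leukotriene and cell surface peptidase lists, in the K8 line (red) and the Lgr5 line (blue), filled where the limma adjusted p was under 0.05. Most genes lie near 0, with Slc7a11 at -2.12 and Mme at 1.64 in the K8 line and Enpep at 2.15 in the Lgr5 line among the widest called differences.

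Of 22 genes that build and attach the GPI anchor, which holds dipeptidase 1 on the membrane, 1 rose and 3 fell in K8 tumors, with a median log2 difference of -0.12, and 1 rose and 4 fell in Lgr5 tumors, with a median of -0.15. Of all genes 9.10% passed in the K8 line and 15.9% in the Lgr5 line, with a median of -0.01 in each. Gpaa1, a subunit of the transamidase that attaches the anchor, fell by 0.43 in K8 tumors (limma adjusted p = 0.0296) and by 0.40 in Lgr5 tumors (limma adjusted p = 0.017). Pigk, the catalytic subunit of the same complex, rose by 0.31 in Lgr5 tumors (limma adjusted p = 0.025).

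On mouse chromosome 8 the 5 protein-coding genes on each side of Dpep1 did not share its pattern. All 10 were measured, with r to Dpep1 between -0.64 (Chmp1a) and 0.73 (Sult5a1). For Sult5a1 r was 0.53 after group means were subtracted and 0.22 over the 18 arrays. The nearest gene before it, the sulfotransferase gene Sult5a1, ranged from 5.68 to 8.27, a span of 2.58, against 5.59 for Dpep1. Sult5a1 had log2 differences of 1.07 ± 0.44 (SE, limma adjusted p = 0.129) in K8 tumors and 0.98 ± 0.37 (SE, limma adjusted p = 0.0739) in Lgr5 tumors and passed in neither, while without K8 tumor 9 and Lgr5 tumor 10 they were 1.17 and 1.09 and both passed. Chmp1a, the nearest gene after it and a part of the membrane-remodelling ESCRT machinery, fell by 0.38 ± 0.11 (SE, limma adjusted p = 0.0214) in Lgr5 tumors, and Spata33 rose by 0.21 ± 0.06 (SE, limma adjusted p = 0.0337) in K8 tumors. The others (Ankrd11, Spg7, Rpl13, Cpne7, Cdk10, Spata2l and Vps9d1) passed in neither line.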

How the data were processed

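Total RNA of 25 mouse samples (100 ng each) was amplified and hybridised to Affymetrix whole-transcript arrays, per the labels' protocols. The deposited value table of the authors was read as log2 values, since its 34760 probe sets ran from 4.13 to 13.9 with like medians on every array. Of tools, the submitters' processing notes name affy, while the normalization, the log base and the build were not given in the sources used here. Array values carry no depth, so precision is limited by the number of arrays.

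Probe sets were named through GEO's platform annotation. A single gene symbol was listed for 21640, several for 1321 and none for 11799, and 21553 of the single ones matched a RefSeq gene ID. A gene with several probe sets (954 genes) was read by the brightest, which left 19937 genes.

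Groups follow the labels. limma 3.58.1 (R 4.3.3) fitted 4 group means over all 25 arrays, and a call is a Benjamini-Hochberg adjusted p under 0.05 over all genes. The comparisons between tumors share arrays with the comparisons to glands. The fit was tested on simulated data. Replicate numbers did not pair tumors with tumors or glands with glands between the lines: of 12 same-numbered pairs, 4 had a correlation over 0.1. The range was -0.28 to 0.51. Pairing of tumors with glands within a line was not checked.

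Likeness to Dpep1 was Pearson's r over named protein-coding genes, and is given with no p. Genes named were Dpep1, its family and pathway lists, the 15 highest and 5 lowest by r, the 10 highest after subtracting group means, 5 neighbours on each side, and up to 4 genes and a defining gene for each marker list. Dpep1, the lists and the arrays left out were chosen with earlier results of these data known. Alternatives were other scalings and filters, a replicate block, array weights, an adipocyte covariate and arrays left out. List members with no value under the naming rule were not analysed here. The promoter came from RefSeq (GRCm38.p6). Figures were drawn with matplotlib 3.10.9.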

Additional observations from a re-analysis of the deposited data

Results flagged for a closer look

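K8 tumor 9 and Lgr5 tumor 10 lay far from the other arrays of their groups in Dpep1, at log2 levels of 7.09 and 8.39, which is a description, since Dpep1 was chosen by these levels. For other genes, an array is named here where its gap to the nearest other tumor, divided by the range of the group, was above Dixon's limit of 0.466 for 10 samples. Chance alone passes that limit in about 1 in 20 groups. Tshz2, Scn7a, Cyyr1 and Nolc1 were picked for their likeness to Dpep1 on these arrays and the genes share the same arrays, so the number of such cases was not set against chance.

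K8 tumor 9 stood apart with high levels of Ggt6 (6.56), Gss (8.86), which encodes glutathione synthetase, Slc15a1 (8.51) and Slc7a11 (8.04). It stood apart with low levels of Gpx8 (9.66), Tie1 (7.07), Scn7a (8.25) and Cyyr1 (7.05). Lgr5 tumor 10 stood apart with high levels of Slc7a11 (8.60) and Nolc1 (9.22) and with low levels of Mme (9.45), Vwf (7.60), Tshz2 (7.00) and Scn7a (9.89). In K8 tumor 7 Alox5 (8.26) and Ltc4s (7.45) were high among K8 tumors. The squamous means of K8 tumor 9 (9.43) and Lgr5 tumor 10 (9.72) lay in the range of the glands, and what sets these arrays apart was not tested.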

How the results depend on the processing

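The tumor-gland difference of Dpep1 kept its sign in each line under every setting run. With each array left out in turn it was 3.68 to 4.20 in the K8 line and 3.42 to 3.90 in the Lgr5 line, and under an adipocyte covariate it was 2.50 in the Lgr5 line. The log2 difference of Dpep1 between K8 and Lgr5 tumors was -0.88 to -0.25 with 1 array left out, and turned to 0.36 with the adipocyte covariate, 0.11 without Lgr5 tumors 2, 6, 7, 8 and 9, and 0.0198 without all 7 arrays. K8 minus Lgr5 glands gave -1.02 to -0.63 with 1 array left out.

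Counts of called genes moved far more. For Lgr5 tumors against Lgr5 glands limma called 690 genes when fitted on these groups only, 7815 with array weights, 5387 when K8 tumor 9 and Lgr5 tumor 10 were left out, 1 without the 5 Lgr5 tumors (3808 at an unadjusted p under 0.05) and 0 with the covariate (2709 unadjusted), against 3168. For K8 tumors against K8 glands the same settings gave 2859, 6341 and 3963, with 2838 under the covariate and 5351 without all 7 arrays, against 1815. For K8 against Lgr5 tumors there were 7997 with array weights and 0 with the covariate, without the 5 Lgr5 tumors and without all 7 arrays (497, 1638 and 2272 unadjusted), against 4246. Leaving out 1 array gave 252 (Lgr5 gland 1) to 4990 (Lgr5 tumor 10) in the Lgr5 line, 30 (K8 gland 1) to 3382 (K8 tumor 9) in the K8 line and 2291 (Lgr5 tumor 8) to 5698 between tumors.

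Of the 39 glutathione and leukotriene genes, 8 were called in the Lgr5 line. This became 1 when fitted on its groups only, 25 with array weights, 5 after quantile scaling, 0 with the covariate, 0 without the 5 Lgr5 tumors, 20 when K8 tumor 9 and Lgr5 tumor 10 were left out, and 1 (without Lgr5 gland 1) to 18 (without Lgr5 tumor 10) leaving out 1 array. In the K8 line 5 were called, with 20 under array weights, 3 with a trended robust fit, 3 among genes above the median level, 11 when K8 tumor 9 and Lgr5 tumor 10 were left out, 16 without all 7 arrays, and 0 (without K8 gland 1 or 2) to 11 (without K8 tumor 9) leaving out 1 array. Between tumors 12 were called, with 23 under array weights, 0 in the 3 settings named above, and 6 to 19 leaving out 1 array (lowest without Lgr5 tumor 6, 7 or 9, highest without Lgr5 tumor 3).

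Of the 10 endothelial genes, 8 in the Lgr5 line became 0 with the covariate or without the 5 Lgr5 tumors, and 1 (without Lgr5 gland 1 or 3) to 10 leaving out 1 array. The 4 in the K8 line became 10 with array weights, 8 among genes above the median level, 10 when K8 tumor 9 and Lgr5 tumor 10 were left out, 10 without all 7 arrays, and 0 (without K8 gland 1 or 2) to 10 (without K8 tumor 9) leaving out 1 array. With the replicate number as a block, the Dpep1 differences were 4.18 in the K8 line, 3.95 in the Lgr5 line and -0.60 between tumors. The numbers did not pair samples between the lines, and pairing within a line was not checked. In this setting the Lgr5 line had 1737 calls. The glutathione and leukotriene genes had 4 in the Lgr5 line and 3 in the K8 line, and the endothelial genes had 1 in each.

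Of the 15 genes most like Dpep1, 4 were shared with Spearman's ranking, 7 without the 7 arrays, 7 over K8 tumors, 2 over Lgr5 tumors, 8 after subtracting group means and 2 over the 18 arrays. Under the adipocyte covariate the K8 minus Lgr5 tumor difference changed sign for Ggt5 (0.11), Gstm1 (0.12), Ltc4s (0.0842), Lta4h (-0.0219), Enpep (0.24) and Fap (0.13). Among the named genes over all settings 1484 values kept their side of the threshold, 266 lost and 66 gained a call, and 6 changed sign. The ranking over the 18 arrays, and the counts of each single list without these arrays, were added after seeing the data, and apart from smaller groups the causes were not tested.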

Other observations

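Over the 18 arrays labelled tumor without K8 tumor 9 and Lgr5 tumor 10, the ranking by likeness to Dpep1 led with other genes than over all 25, which are named here after their values were seen. Tshz2 (r = 0.98) was followed by Tspyl2 (0.96), Esam (0.94), Ttc38 (0.93), Zfp385a (0.93) and Cyyr1 (0.92). Mocs1, an enzyme gene of molybdenum cofactor synthesis, had 0.90 over the 18 arrays but 0.17 over all 25. Cd300lg, a gene of capillary endothelium, had 0.90. The lowest r belonged to Adamts8 (-0.90), Nolc1 (-0.90) and Tubb2b (-0.89).

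Lgr5 gland 2 differed from the other glands in several genes of the lists. Its log2 level of Slc7a11 was 6.26, of Dpep2 6.24 and of S100a8 8.54, each the lowest of the 5 glands, and its Mme (10.89) and Ace (10.58) were the highest. Its Dpep1 level (6.83) lay within the range of the glands.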
